A study of Mus musculus with 12 samples.

Results

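The circadian clock genes described here were Arntl, Npas2, Nr1d1, Nr1d2, Per1, Per2, Per3, Dbp, Tef and Ciart, chosen by their gene symbols as core clock and clock output genes, 10 of the 54532 genes counted. The circadian clock of mammalian cells is a transcriptional loop. Arntl (BMAL1) with Clock or Npas2 switches on genes through the E-box, and the products of the period and cryptochrome genes then inhibit that pair, while Nr1d1 and Nr1d2 (REV-ERBα and REV-ERBβ) shut down Arntl and Npas2 in turn. In mouse liver and fat, Arntl and Npas2 therefore peak at the opposite phase of the day from Dbp and the Nr1d genes, with the period genes later than these, so at a single time point phase, amplitude and level cannot be told apart.

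Mice received a tail vein injection of an adeno-associated virus of serotype 8 when 10 weeks old, and their liver and subcutaneous fat were sequenced, 12 libraries in all, of which each pairing of tissue and vector has 3. The hHKDC1 OE vector carried full-length human HKDC1, a hexokinase domain containing protein, driven by the hepatocyte-specific promoter of thyroxine-binding globulin, and the null vector carried the promoter alone. All mice ate a low-fat diet for 16 weeks after the injection and lived under 14 hours of light and 10 hours of dark. The study names males for the fat libraries, and the strain, the hour of killing and any fasting before it are not given in the sources used here for these libraries. Fat is not a tissue that this promoter is made to act in.

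Total counts on genes ran from 15496019 to 19954971 per library, and no 2 libraries of a group agreed within counting error. Replicate 2 of the hHKDC1 OE group stood apart over all genes in each tissue, with a chi-square per gene against replicates 1 and 3 of 121 and 100.03 in liver, beside 40.3 between replicates 1 and 3, and of 154 and 126 in fat, beside 51.2. In each tissue, the descriptions of replicates 2 and 3 of the hHKDC1 OE group call them knockouts, while their titles and treatment say overexpression, so they were kept as hHKDC1 OE and results are also given without them. Mouse Hkdc1 had 1 to 8 counts in liver and 0 to 7 in fat, which says nothing of the human transgene. Hepatocyte markers (10 genes such as Alb) summed to 116015 to 119149 CPM (counts scaled to library size, with TMM normalisation within the tissue) in null liver and 72766 to 97506 in hHKDC1 OE liver, and adipocyte markers (10 genes such as Adipoq, all detected in every fat library) to 38687, 46001 and 44490 CPM in null fat and 28448, 41477 and 34046 CPM in hHKDC1 OE fat. Hepatocyte markers in fat summed to 2705, 2775 and 8027 CPM in null and 2214, 791 and 1187 CPM in hHKDC1 OE libraries. In fat, B cell markers (12 genes) summed to 2.61 to 4.49 CPM in the null libraries, with 2 or 3 of the 12 at 0 counts, and to 1066, 60.2 and 796 CPM in hHKDC1 OE replicates 1, 2 and 3. T cell markers (10 genes) summed to 7.88 to 19.4 and to 661, 51.0 and 747 CPM. Macrophage markers (10 genes) summed to 120 to 181 CPM in null liver and 317, 187 and 168 CPM in hHKDC1 OE liver, and to 149 to 323 and 418 to 492 CPM in fat. Skeletal muscle markers (10 genes) ran from 619 to 24535 CPM in null fat and from 1175 to 16707 CPM in hHKDC1 OE fat. In such bulk tissue, fewer cells of a type and less RNA per cell cannot be told apart.

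The loop and its output work through short sequences near the start of a gene, and these are shown for the members in which an exact match was found, since the members differ in which of them they hold. RefSeq promoter windows (250 bases before to 50 after a start, GRCm38.p6) were at hand for 9 of the 10 genes, with 12 starts in all. The motifs searched, on both strands, were the E-box CACGTG, which reads the same on both strands and is bound by the Arntl pair, the D-box TTATGTAA or TTACGTAA, bound by Dbp and Tef, and the REV-ERB and ROR element (AGGTCA with AANT directly before it). These motifs did not overlap each other in the stretches shown. The E-box was in 7.15% of all 32851 windows, the D-box in 1.06% and the REV-ERB and ROR element in 0.219%. Matches to the letters are a description and not evidence of binding. Capitals mark the match in each stretch, read 5′ to 3′ on the gene's strand.

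Ciart, chr3:95882247-95882364, minus strand, 3 E-boxes that begin at -116, -58 and -44 from the start: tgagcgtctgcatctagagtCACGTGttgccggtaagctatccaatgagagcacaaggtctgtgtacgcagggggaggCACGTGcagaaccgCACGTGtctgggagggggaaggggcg
Per1, chr11:69098763-69098808, plus strand, E-box from -166: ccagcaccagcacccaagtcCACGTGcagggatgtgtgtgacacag
Tef, first start, chr15:81802526-81802571, plus strand, E-box from -127: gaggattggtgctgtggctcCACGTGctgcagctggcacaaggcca
Tef, second start, chr15:81811256-81811301, plus strand, E-box from -138: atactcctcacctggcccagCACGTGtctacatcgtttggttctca
Per3, chr4:151044796-151044890, minus strand, 2 D-boxes from -205 and -158: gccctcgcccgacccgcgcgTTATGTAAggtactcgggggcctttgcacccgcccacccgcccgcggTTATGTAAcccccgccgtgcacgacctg
Arntl, second start, chr7:113207529-113207556, plus strand, REV-ERB and ROR element from 28: gaaggcagaAAGTAGGTCAgggacggag

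Thus 4 of the 12 windows, from 3 members, held an E-box, 1 window D-boxes and 1 the REV-ERB and ROR element. Of the starts shown, that of Per3 is at the 5′ end of the gene in GENCODE, and the others lie inside the gene's span.

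The levels of the clock genes in the null mice are described first, per length, as FPKM (fragments per kilobase of exon, scaled for depth; mean ± SD, n = 3). In null liver the order ran from Tef (36.3 ± 2.41) through Dbp (31.1 ± 11.2), Nr1d2 (21.3 ± 6.41), Ciart (15.1 ± 5.43), Nr1d1 (14.4 ± 7.27) and Per1 (13.4 ± 2.11), and each of these overlapped the next in the libraries' values. Per2 (8.46 ± 1.18) lay below its neighbour Per1 in every library but overlapped Nr1d1 and Ciart. Per3 (3.66 ± 0.380), Arntl (0.403 ± 0.207) and Npas2 (0.0241 ± 0.0110) were set apart from each other and from those above. The positive arm of the loop was thus the lowest of the 10 genes in these livers.

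In null fat the order began with Nr1d1 (46.9 ± 12.5), Tef (29.5 ± 3.04), Dbp (24.9 ± 4.61) and Per1 (22.1 ± 1.11 FPKM), again each overlapping the next. Nr1d2 (15.95 ± 2.64) stood below Per1, while Per2 (8.11 ± 1.13) and Per3 (8.03 ± 1.20 FPKM) overlapped. Ciart (2.07 ± 0.283), Arntl (0.354 ± 0.0581) and Npas2 (0.0889 ± 0.0413 FPKM) closed the order, so Arntl and Npas2 were lowest in both tissues.

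Between null fat and null liver, edgeR called 9810 of 15259 genes tested (64.3%) at an adjusted p under 0.05, and 4 of the 9 clock genes tested. Nr1d1 was higher in fat by 1.66 ± 0.42 on the log2 scale (± SE, adjusted p = 0.00841, edgeR), Per3 by 1.08 ± 0.16 (adjusted p = 5.30e-04, edgeR) and Per1 by 0.67 ± 0.15 (adjusted p = 0.00462, edgeR). Ciart, a repressor that acts on the Arntl pair, was lower in fat by a log2 difference of -2.91 ± 0.30 (adjusted p = 8.23e-05, edgeR). These 4 genes and Tef did not overlap between the tissues, as held for 71.6% of all genes tested. The log2 differences of Arntl (-0.25), Nr1d2 (-0.47), Per2 (-0.12), Dbp (-0.37) and Tef (-0.35) did not pass, and Npas2 was too low in liver to be tested. With library size as the only scaling the median of all genes moved by 0.89 toward fat, and these 5 differences turned positive, with Per2 and Tef passing as higher in fat (adjusted p = 0.00630 and 0.01001, edgeR). Without null liver replicate 3, Dbp (-0.65, adjusted p = 0.0288, edgeR) and Nr1d2 (-0.64, adjusted p = 0.0478, edgeR) passed as lower in fat, so 6 members were called in each of these fits. Over all genes, library size alone called 11298 of 15259, and the fits with 1 library left out called 8984 to 9671. In a fit of all 12 libraries Per1 kept its difference of 0.67 but did not pass (adjusted p = 0.197, edgeR).

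**Figure D1:**
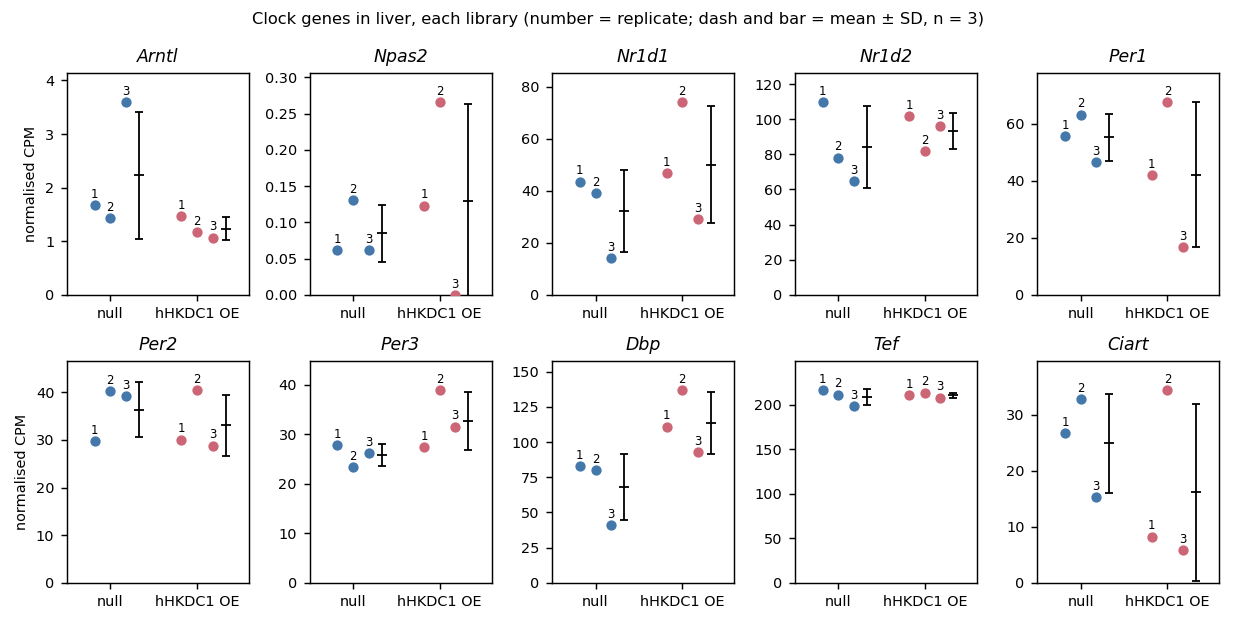
Normalised CPM (y axes, from 0) of the 10 clock genes in the 6 liver libraries, with replicate numbers beside the points and mean ± SD (n = 3) as dash and bar, cut at 0. Dbp is the gene whose groups do not overlap, from 40.8 to 82.8 in null and from 92.9 to 137 in hHKDC1 OE libraries, while hHKDC1 OE libraries of Ciart spread from 5.87 to 34.4.

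In liver, the tissue that carries the transgene, the question was whether the clock genes differed between the vectors. None passed: edgeR called 0 of 13351 genes (0%), among them 0 of the 9 clock genes tested, while 927 genes (6.94%) had an unadjusted p under 0.05, 1 of them a clock gene (Dbp, higher, as were 3.89% of all genes tested). DESeq2 called 94 genes and 0 clock genes. With the replicate number as a block edgeR called 17 genes and 0 clock genes. Dbp, Nr1d1 and Ciart then had log2 differences of 0.79, 0.69 and -0.97. Their unadjusted p were 0.00139, 0.00706 and 0.0125, and their adjusted p 0.199, 0.364 and 0.433 (edgeR). The share of all genes at such a p in that fit was not counted. Of the 9 clock genes, 5 were higher and 4 lower in hHKDC1 OE liver, beside 51.1% and 48.9% of all genes tested, with a median log2 difference of 0.01, against 0.01 over all genes tested. All values by library below are TMM-normalised CPM in the order of replicates 1, 2 and 3.

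In the positive arm, Arntl (chr7:113207465-113314126, plus strand) measured 1.67, 1.43 and 3.596 CPM in null liver and 1.48, 1.17 and 1.07 CPM in hHKDC1 OE liver. These values rest on 20 to 58 counts, and null replicate 3 stood above the other 5 libraries. The log2 difference was -0.85 ± 0.46 (adjusted p = 0.788, edgeR), -0.33 without null replicate 3 and down to -1.08 without null replicate 2. Npas2 (chr1:39193731-39363236, plus strand), the partner that can stand in for Clock, had 1, 2 and 1 counts in null liver and 2, 5 and 0 in hHKDC1 OE liver, which is at or near the 3 counts that a count of 0 allows.

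Among the repressors of Arntl, Nr1d1 (chr11:98767932-98775333, minus strand) measured 43.5, 39.0 and 14.1 CPM in null liver and 46.8, 74.1 and 29.3 in hHKDC1 OE liver. The groups overlapped, and null replicate 3 was the lowest of the 6. The log2 difference was 0.64 ± 0.42 (adjusted p = 0.826, edgeR), but 0.24 when hHKDC1 OE replicate 2 was left out, 0.28 when null replicate 3 was, and at most 0.92, when null replicate 1 was. Of its exon bases, 8.55% overlap Thra on the opposite strand, and the libraries kept no strand.
Nr1d2 (chr14:18204054-18239127, minus strand) measured 110, 78.2 and 64.6 CPM in null liver and 102, 81.8 and 96.3 in hHKDC1 OE liver. The 3 hHKDC1 OE libraries lay inside the null range, and the log2 difference was 0.15 ± 0.20 (adjusted p = 0.928, edgeR).

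Of the period genes, whose proteins inhibit the Arntl pair, Per1 (chr11:69095217-69109960, plus strand) measured 55.7, 63.1 and 46.5 CPM in null liver and 42.1, 67.5 and 16.6 CPM in hHKDC1 OE liver. The hHKDC1 OE libraries fell on both sides of the null range, and the log2 difference was -0.39 ± 0.39 (adjusted p = 0.895, edgeR). It was -0.91 without hHKDC1 OE replicate 2 and -0.0079 without replicate 3, so its size rests on which of these libraries is kept. Per2 (chr1:91415982-91459324, minus strand) measured 29.7, 40.2 and 39.2 in null liver and 30.1, 40.5 and 28.8 CPM in hHKDC1 OE liver, nearly the same range, with a log2 difference of -0.14 ± 0.18 that ran from -0.31 (hHKDC1 OE replicate 2 left out) to -0.04 (replicate 3 left out) and was -0.27 without the libraries described as knockouts. Per3 (chr4:151003652-151044665, minus strand) measured 27.7, 23.3 and 26.1 CPM in null liver and 27.3, 38.9 and 31.5 CPM in hHKDC1 OE liver. It overlapped by 1 library, and the log2 difference was 0.34 ± 0.17 (adjusted p = 0.759, edgeR), but 0.19 without hHKDC1 OE replicate 2 and 0.09 without the libraries described as knockouts.

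Ciart (chr3:95878503-95882251, minus strand), the gene with the 3 E-boxes above, measured 26.7, 32.8 and 15.3 CPM in null liver and 8.24, 34.4 and 5.87 CPM in hHKDC1 OE liver. Replicates 1 and 3 lay below every null library and replicate 2 above them all. The log2 difference was -0.62 ± 0.58 (adjusted p = 0.888, edgeR). Without hHKDC1 OE replicate 2 it was -1.82 and passed (adjusted p = 0.0334, edgeR), and 146 genes were called. It was -0.22 without hHKDC1 OE replicate 3, -0.31 without hHKDC1 OE replicate 1 and -0.37 without null replicate 2. Without the libraries described as knockouts, which leaves 1 hHKDC1 OE library assumed to vary like the null ones, Ciart gave -1.60 (adjusted p = 0.244, edgeR).

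Of the outputs, Dbp (chr7:45705088-45710203, plus strand), the D-box activator, measured 82.8, 79.99 and 40.8 CPM in null liver and 111, 137 and 92.9 CPM in hHKDC1 OE liver. The hHKDC1 OE libraries were all above the null ones, as held for 6.31% of all genes tested in liver, and an exact permutation test gave p = 0.1, the smallest that 3 libraries against 3 allow (two-sided). The log2 difference was 0.74 ± 0.26 (unadjusted p = 0.0195, adjusted p = 0.606, edgeR), and with 1 library left out it ran from 0.48 (without null replicate 3) to 0.91 (without null replicate 1). Of the exon bases of Dbp, 18.01% overlap Sphk2 on the opposite strand. Tef (chr15:81802421-81826863, plus strand), a second D-box activator of the same family, measured 217, 212 and 199 CPM in null liver and 211, 214 and 208 in hHKDC1 OE liver. It was the steadiest of the members, with a log2 difference of 0.01 ± 0.13.

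The spread between libraries of a group was itself wide for part of the loop in liver. The biological coefficient of variation, the spread left after counting error, was 48.7% for Ciart, 36.2% for Nr1d1 and 34.4% for Per1, against 19.6%, 18.4% and 18.6% for genes of like level, and it stood above the trend in 5 of the 9 members tested, 1 of them Nr1d2 by a small margin (19.6% against 19.0%), beside 28.2% of all genes tested. In fat it did so in 2 of 10 members, beside 24.9% of all genes. The highest hHKDC1 OE liver library of Ciart was 5.87 times the lowest, a span exceeded by 2.38% of the genes. For Per1 the ratio was 4.07, exceeded by 4.74% of the genes, and for Nr1d1 in null liver it was 3.09, exceeded by 8.29%. Tef, at 1.03 in hHKDC1 OE liver, lay at the other end, with 99.4% of the genes wider. In null liver the members' median ratio of highest to lowest was 1.70, against 1.39 over all genes, and in hHKDC1 OE liver it was 1.42 against 1.40.

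Libraries of 1 group also differed in pattern. Null liver replicate 3 had the highest Arntl of the null livers together with the lowest Nr1d1, Nr1d2, Dbp, Ciart, Per1 and Tef, although its Per2 and Per3 lay between those of the other two. In hHKDC1 OE liver, replicate 2, the library that stood apart over all genes, had the highest Nr1d1, Per1, Per2, Per3, Dbp, Tef and Ciart. It also had the lowest Nr1d2 (81.8 CPM) and the highest Npas2, at 5 counts. Replicate 3 had the lowest Nr1d1, Per1, Per2, Dbp, Tef and Ciart and also the lowest Arntl and Npas2. The hour at which each mouse was killed is not in the labels, so its part in these differences was not tested. Hepatocyte marker sums were lower in hHKDC1 OE liver, with 7 of the 10 genes lower and 3 higher. Macrophage marker sums overlapped the null ones, but 9 of the 10 genes were higher. Of these, 6 had an unadjusted p under 0.05 (edgeR), beside 3.89% of all genes tested, and 0 passed. The part of either cell type in these differences was not tested.

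**Figure D2:**
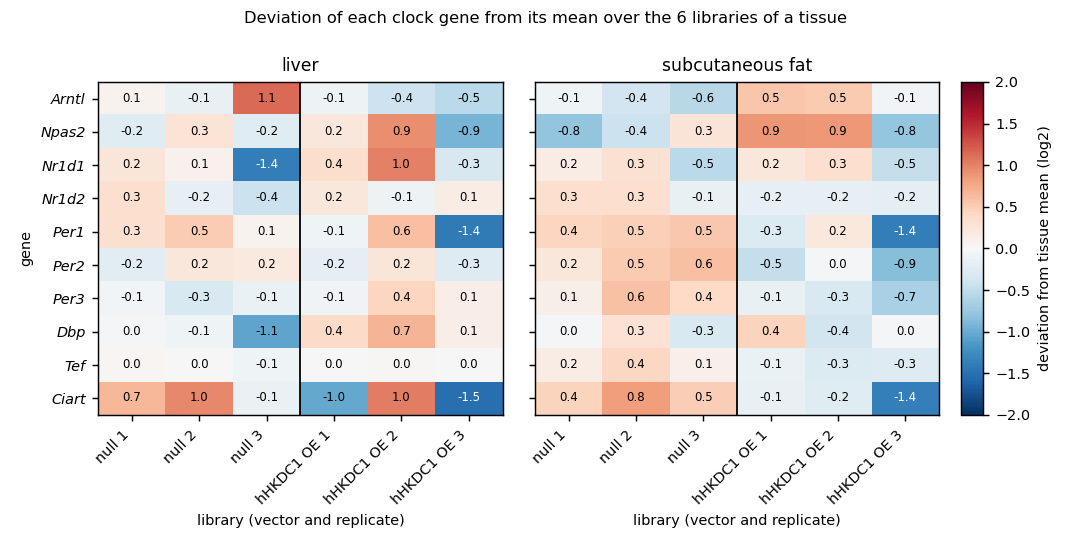
Deviation of each clock gene (rows) from its own mean over the 6 libraries of a tissue (columns, by vector and replicate), in log2 units, red above and blue below the mean. Null liver replicate 3 shows red for Arntl beside blue for Nr1d1 and Dbp, and hHKDC1 OE replicate 3 is blue for Per1 and Ciart in both tissues.

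In subcutaneous fat no clock gene passed, while Nr1d2, Per1, Per2, Per3, Tef and Ciart lay lower in every hHKDC1 OE library than in any null library and Arntl higher. edgeR called 0 of 16380 genes (0%) and 0 of the 10 clock genes, while 2903 genes (17.7%) had an unadjusted p under 0.05. Of the clock genes, 4 had such a p and were lower (Per2, Per3, Tef and Ciart), beside 6.39% of all genes tested. DESeq2 called 1446 genes, among them Per2 and Per3 with adjusted p of 0.0465 and 0.0481. The hHKDC1 OE libraries all lay below the null ones for 6 members, beside 10.2% of all genes tested, and all above for 1, beside 12.5%. This separation turned on the scaling for 2 of them: with library size alone Nr1d2 overlapped (92.5 to 120 CPM in null and 92.4 to 97.1 in hHKDC1 OE fat), and in FPKM Arntl did (0.307 to 0.419 and 0.404 to 0.659). By sign alone, 4 were above 0 (Arntl, Npas2, Nr1d1 and Dbp) and 6 below, near the 46.1% and 53.9% of all genes. The members' median log2 difference was -0.41, against -0.05 over all genes tested.

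**Figure D3:**
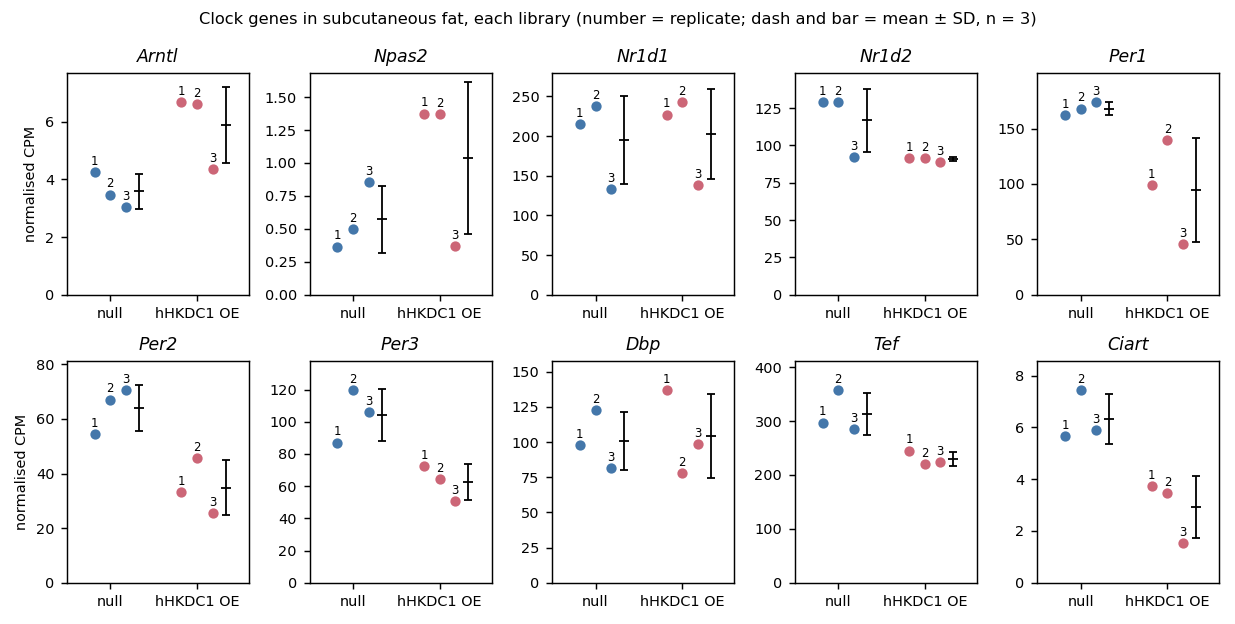
Normalised CPM (y axes, from 0) of the 10 clock genes in the 6 subcutaneous fat libraries, with replicate numbers beside the points and mean ± SD (n = 3) as dash and bar. In Nr1d2, Per1, Per2, Per3, Tef and Ciart the 3 hHKDC1 OE points lie below the 3 null points, and in Arntl above them.

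Per3 measured 87.0, 120 and 106 CPM in null fat and 72.4, 64.4 and 50.8 CPM in hHKDC1 OE fat. The groups did not overlap (exact permutation test, p = 0.1), and the log2 difference was -0.74 ± 0.19 (unadjusted p = 0.00591, adjusted p = 0.139, edgeR). Per3 is the member whose promoter window held the 2 D-boxes shown above.
Per2 measured 54.5, 67.1 and 70.6 CPM in null fat and 33.2, 45.6 and 25.6 CPM in hHKDC1 OE fat. Again the groups were apart, with a log2 difference of -0.88 ± 0.23 (unadjusted p = 0.00666, adjusted p = 0.144, edgeR). Without hHKDC1 OE replicate 2 it was -1.13 and passed (adjusted p = 0.00936, edgeR), in a fit that called 3251 of 17190 genes and 2 of the 10 members. Over the other libraries left out in turn it ran from -1.01 to -0.70 and did not pass.
Per1 measured 162, 168 and 174 CPM in null fat and 98.9, 140 and 46.0 CPM in hHKDC1 OE fat. The null libraries lay within 1.07 times of each other and the hHKDC1 OE libraries spanned 3.03 times, all of them lower. The log2 difference was -0.82 ± 0.36 (adjusted p = 0.293, edgeR). Without hHKDC1 OE replicate 2 it was -1.22 and passed (adjusted p = 0.0398, edgeR), in the fit that called 3251 of 17190 genes. Without replicate 3 it was -0.49 (adjusted p = 0.480, edgeR).

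Ciart measured 5.65, 7.44 and 5.88 CPM in null fat and 3.74, 3.47 and 1.54 CPM in hHKDC1 OE fat. The groups were apart, and its log2 difference of -1.11 ± 0.40 was the lowest of the 10 members (unadjusted p = 0.0270, adjusted p = 0.228, edgeR). Of the Nr1d pair, Nr1d2 measured 129, 129 and 92.2 CPM in null fat and 91.5, 91.4 and 89.0 CPM in hHKDC1 OE fat. The groups were apart by a narrow margin, and the log2 difference was -0.36 ± 0.17 (adjusted p = 0.307, edgeR). Nr1d1 measured 215, 238 and 133 CPM in null fat and 227, 243 and 138 CPM in hHKDC1 OE fat, an overlap with the third replicate lowest in each group, and a log2 difference of 0.05 ± 0.30.

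Of the output activators in fat, Tef measured 297, 358 and 286 CPM in null and 245, 221 and 224 CPM in hHKDC1 OE libraries. All 3 hHKDC1 OE libraries were below the null range, and the log2 difference was -0.45 ± 0.16 (unadjusted p = 0.0271, adjusted p = 0.228, edgeR). Dbp measured 97.6, 123 and 81.7 CPM in null and 137, 78.1 and 98.4 CPM in hHKDC1 OE libraries, and its log2 difference was 0.05 ± 0.25.

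In the positive arm in fat, Arntl measured 4.26, 3.47 and 3.05 CPM in null and 6.68, 6.60 and 4.36 CPM in hHKDC1 OE libraries. Every hHKDC1 OE library was above the null range, by a narrow margin for replicate 3. The log2 difference was 0.71 ± 0.31 (unadjusted p = 0.0575, adjusted p = 0.294, edgeR). Npas2 measured 0.365, 0.496 and 0.856 CPM in null and 1.37, 1.37 and 0.369 CPM in hHKDC1 OE libraries, with 2 libraries above the null range and 1 inside it, and a log2 difference of 0.85 ± 0.66 (adjusted p = 0.507, edgeR).

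The B and T cell markers given above were higher in the same 3 hHKDC1 OE fat libraries, 12 of 12 and 10 of 10 with an unadjusted p under 0.05, beside 11.3% of all genes tested. Replicate 2 had the lowest sums of these markers in its group. With replicates 1 and 3 left out, so that replicate 2 alone stood against the 3 null libraries and was assumed to vary like them, the log2 difference was -0.70 for Per3, -0.49 for Per2, -0.27 for Per1, -0.51 for Tef, -0.87 for Ciart, -0.35 for Nr1d2 and 0.88 for Arntl, with 0 clock genes called and Per3 alone at an unadjusted p under 0.05 (0.0276). Per1 and Per2 were thus less low there than with all 3 libraries, and Dbp was at -0.37. Without the libraries described as knockouts edgeR called 1024 genes and 0 clock genes, with Per1 at -0.77 (adjusted p = 0.0735, edgeR), Per2 at -0.96 (adjusted p = 0.0740, edgeR), and Dbp at 0.43, so that the sign of Dbp differed between these fits. Skeletal muscle markers varied within the null fat group from 619 to 24535 CPM. Null replicate 3 had the lowest sum of these and also the highest hepatocyte marker sum, and it was the lowest of the null group in Arntl, Nr1d1, Nr1d2, Dbp and Tef and the highest in Npas2, Per1 and Per2. The part of muscle, hepatocyte and adipocyte RNA in the fat values was not tested.

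Whether the vectors' difference itself differed between fat and liver was tested over all 12 libraries. edgeR called 0 of 17070 genes (0%), with 2163 (12.7%) at an unadjusted p under 0.05, among them 3 clock genes. Per3 had the smallest p of the members: its log2 difference was 0.99 lower in fat than in liver (interaction -0.99 ± 0.26, unadjusted p = 0.00215, adjusted p = 0.149, edgeR). DESeq2 called 497 genes, and Per3 alone of the members (adjusted p = 0.0179). Arntl gave an interaction of 1.64 ± 0.56 (adjusted p = 0.247, edgeR), being lower in hHKDC1 OE liver and higher in hHKDC1 OE fat, and Per2 gave -0.67 ± 0.30 (adjusted p = 0.388, edgeR). Without fat hHKDC1 OE replicate 2, Per2 and Per3 passed and 1211 genes were called. Among the other 7 members the smallest unadjusted p was 0.0944, that of Tef (edgeR).

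**Figure D4:**
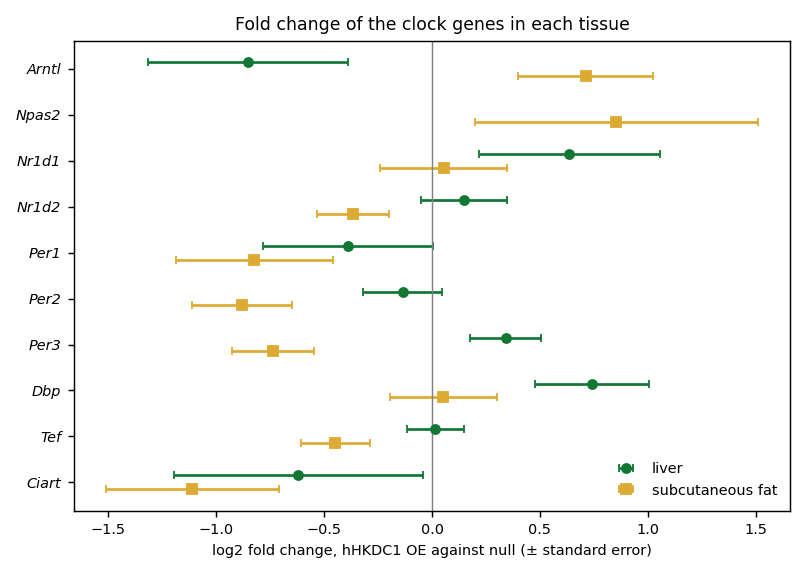
log2 fold change of hHKDC1 OE against null (x axis) for each clock gene, with its standard error as the bar, in liver (circles) and subcutaneous fat (squares). Arntl is at -0.85 in liver and 0.71 in fat, Per3 at 0.34 and -0.74, and Per1, Per2 and Ciart lie below 0 in both, while Npas2 has a value in fat only.

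To set the libraries side by side, a clock index was taken in each. It was the mean log2 CPM of Nr1d1, Nr1d2, Per3, Dbp, Tef and Ciart minus that of Arntl and Npas2 (pseudocount 0.1 CPM). It is high when the Nr1d genes and outputs are high beside the positive arm, and since no series of known hours was used it gives no hour. In liver it was 6.89, 6.62 and 5.62 in null (mean 6.38 ± 0.67 SD) and 6.52, 6.85 and 7.09 in hHKDC1 OE libraries (6.82 ± 0.29). The groups overlapped, and the difference of 0.45 was smaller than the SD within the null group. Without null replicate 3 it was 0.07, and it also turned on the counterpart, at 0.87 with Arntl alone and 0.02 with Npas2 alone. Npas2 had 0 to 5 counts per library in liver, so the index with it rests partly on the pseudocount. The highest value, 7.09 in hHKDC1 OE replicate 3, is that of the library with 0 counts of Npas2.

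In fat the index was 5.92, 6.15 and 5.44 in null (5.83 ± 0.36) and 4.59, 4.41 and 5.20 in hHKDC1 OE libraries (4.73 ± 0.41). The groups did not overlap, and the difference of -1.10 exceeded the SD of either group. The index is made of the members described above, so its separation restates their values and is not a separate result. Among them, Nr1d1 and Dbp each had a log2 difference of 0.05 in fat. Npas2, at few counts, weighs on the index: with Arntl alone as the counterpart it ran from 4.30 to 4.86 in null and from 3.32 to 3.57 in hHKDC1 OE fat, still apart. With Dbp against Npas2 it was 7.72, 7.69 and 6.42 in null and 6.54, 5.73 and 7.72 in hHKDC1 OE fat, where the groups overlapped and the difference was -0.61. In liver, the version with Arntl alone gave 5.16, 5.25 and 3.36 in null and 5.11, 5.96 and 5.32 in hHKDC1 OE libraries, which leaves null replicate 3 lowest. The difference between the fat groups with Arntl alone was -1.12, beside an SD of 0.28 in null and 0.13 in hHKDC1 OE fat.

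**Figure D5:**
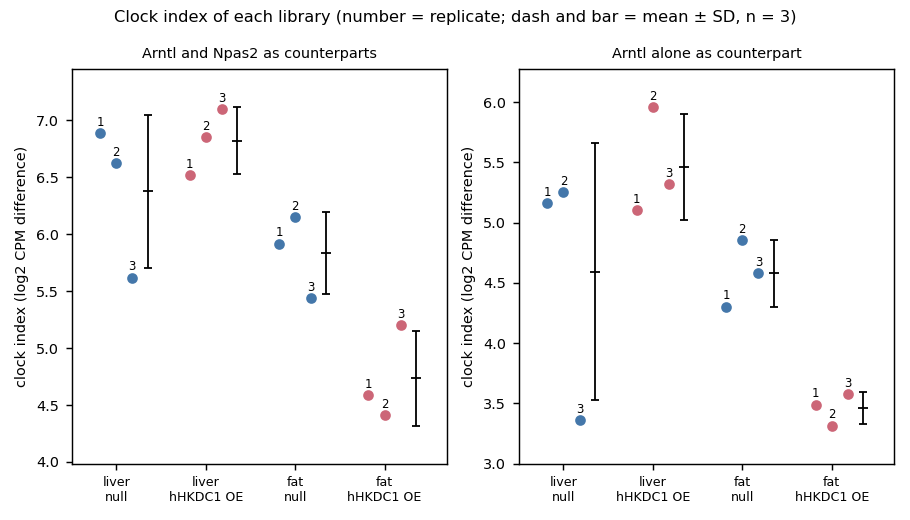
Clock index (log2 CPM difference, y axes not from 0) of each library by tissue and vector, with mean ± SD (n = 3), using Arntl and Npas2 (left) or Arntl alone (right) as the counterpart. Fat hHKDC1 OE points (4.41 to 5.20, left) lie below the null fat points (5.44 to 6.15), and null replicate 3 is the lowest of the liver points in both panels.

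Liver and fat libraries with the same vector and number were compared as well, though the labels do not say that they come from the same mouse. The lowest library carried the same number in both tissues for 6 of 10 members among the null libraries and for 6 of 10 among the hHKDC1 OE libraries, and the highest for 2 and 5. Over the 11697 genes with a mean of at least 1 CPM in both tissues the lowest matched in 44.9% and 33.6%, and the highest in 43.8% and 33.4%, so these counts of 10 are read as a description only. Replicate 3 was the lowest hHKDC1 OE library of both tissues in Per1, Per2, Ciart, Nr1d1, Arntl and Npas2. Replicate 3 of the null group was lowest in both tissues in Nr1d1, Nr1d2, Dbp and Tef.

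Other genes of the clock were read from a list of 15, of which 0 passed in either tissue. In liver 4 were higher and 10 lower of 14 tested, with a median log2 difference of -0.08. Cry1, the cryptochrome that closes the loop with the period proteins, went from 17.0 ± 1.51 to 8.42 ± 1.88 CPM (SD, n = 3; log2 -1.02 ± 0.20 SE, adjusted p = 0.355, edgeR), groups apart. Bhlhe41, an E-box repressor, was at 1.39 and 3.11 CPM (log2 1.17, adjusted p = 0.606, edgeR) and Btrc, which takes part in the breakdown of period proteins, at 12.2 and 15.7 (log2 0.37, adjusted p = 0.741, edgeR). In fat 4 were higher and 11 lower, with a median of -0.22. Rora, an activator at the element shown for Arntl, was at 85.5 and 51.7 CPM (log2 -0.73 ± 0.16, adjusted p = 0.133, edgeR), Nfil3, a D-box repressor, at 12.3 and 6.97 (log2 -0.82, adjusted p = 0.168, edgeR) and Timeless at 7.06 and 12.3 CPM (log2 0.80, adjusted p = 0.217, edgeR).

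Of 10 genes known as outputs of the clock in liver or fat, 8 were lower in hHKDC1 OE liver and 10 in hHKDC1 OE fat, of which 6 and 5 had an unadjusted p under 0.05 and 0 passed, where 3.05% and 6.39% of all genes tested were lower at that p. The median log2 difference was -0.52 in liver and -0.87 in fat. In liver, Por, which feeds electrons to cytochromes P450, was at 762 and 497 CPM (log2 -0.62), Usp2, a ubiquitin protease, at 97.7 and 58.8 (log2 -0.73) and Alas1, the first enzyme of heme synthesis, at 765 and 362 CPM (log2 -1.08). In fat, Wee1, a kinase of the cell cycle, was at 17.4 and 8.92 CPM (log2 -0.96), Alas1 at 363 and 201 (log2 -0.85) and Insig2, a brake on sterol synthesis, at 70.2 and 51.0 CPM (log2 -0.46). Each of these, the genes of smallest p, was apart between the groups, as were 6.18% of all genes in liver and 10.2% in fat in that direction. The hepatocyte marker sums were lower in hHKDC1 OE liver, and the B cell, T cell and macrophage marker sums higher in hHKDC1 OE fat, as given above, and their part in these values was not tested.

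Period genes also answer to glucocorticoids, to temperature and to acute stimuli, so lists for these were read beside Per1 and Per2. Glucocorticoid response genes were lower for 8 of 9 tested in liver and for 9 of 9 in fat, with 3 and 5 at an unadjusted p under 0.05 beside 3.05% and 6.39% of all genes tested, with medians of -0.42 and -0.76, and 0 passed. Fkbp5, a chaperone partner of the glucocorticoid receptor, was at 150 and 62.0 CPM in liver (log2 -1.27, adjusted p = 0.512, edgeR) and at 260 and 86.7 CPM in fat (log2 -1.59, adjusted p = 0.143, edgeR). Tsc22d3 (GILZ) was at 213 and 99.9 CPM in liver (log2 -1.10) and at 343 and 153 CPM in fat (log2 -1.17). Cdkn1a in liver (16.1 and 1.76 CPM, log2 -3.18, adjusted p = 0.355, edgeR) and Errfi1 in fat (116 and 50.6 CPM, log2 -1.19) completed the genes of smallest p. The sums of this list were 1931 to 2163 CPM in null liver and 1771, 1843 and 1417 CPM in hHKDC1 OE liver, and 1445 to 1735 CPM in null fat and 682, 1131 and 674 CPM in hHKDC1 OE fat. In each tissue the sum and Per1 were both highest in hHKDC1 OE replicate 2 and lowest in replicate 3, though in fat the sums of replicates 1 and 3 were nearly equal. In null liver the orders were opposite, with sums of 1951, 1930 and 2163 CPM and Per1 at 55.7, 63.1 and 46.5 CPM. In null fat both rose from replicate 1 to replicate 3. The part of hormone level or handling in the values of Per1 and Per2 was not tested.

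Immediate early genes were higher for 7 of 7 tested in liver and for 6 of 8 in fat, with 3 and 4 at an unadjusted p under 0.05, beside 3.89% and 11.3% of all genes tested, and 0 passing. Junb was at 21.1 and 56.9 CPM in liver (log2 1.43 ± 0.20, adjusted p = 0.149, edgeR) and at 13.5 and 36.5 CPM in fat (log2 1.44 ± 0.35, adjusted p = 0.134, edgeR). Fos (0.497 ± 0.324 and 2.84 ± 2.03 CPM) and Nr4a1 (1.62 ± 1.51 and 20.5 ± 30.2 CPM) in liver overlapped between the groups, and the list summed to 112, 226 and 94.6 CPM in hHKDC1 OE liver, highest in replicate 2, beside 54.6 to 89.8 in null liver. Egr1 (18.6 and 32.1 CPM) and Ier2 (17.4 and 34.96 CPM) in fat were apart. In fat the list summed to 255, 175 and 224 CPM in hHKDC1 OE libraries, lowest in replicate 2, beside 120 to 171 in null fat. Per1 was highest in hHKDC1 OE replicate 2 in both tissues, where these sums were highest in liver and lowest in fat, and the part of acute stimuli in its values was not tested.
Of the temperature response genes, 1 of 8 was higher in liver and 4 of 8 in fat, beside 51.1% and 46.1% of all genes tested, and 0 passed. Cirbp, a cold-induced RNA-binding protein, was at 9.36 and 13.6 CPM in liver and at 35.6 and 57.4 in fat, and overlapped in each. In liver the heat shock genes Hsph1 (60.2 and 40.8 CPM, adjusted p = 0.520, edgeR) and Dnajb1 (28.4 and 21.3 CPM, adjusted p = 0.595, edgeR) were apart, as were 6.18% of all genes in that direction. In fat Rbm3 (88.9 and 113 CPM, adjusted p = 0.282, edgeR) was apart, as were 12.5%, while Hspa1a (3.27 and 1.75 CPM) was not.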

How the data were processed

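The authors mapped reads with STAR and counted them with HTSeq, without strand, and the deposited count table holds raw counts per gene. The study's methods name a human genome, but the identifiers are mouse, and all 10 members have the GENCODE M21 (GRCm38) position. The authors also deposited FPKM, which equal counts per length scaled by DESeq2 size factors over the 12 libraries, since 100% of 252371 rebuilt values came within 1%. A deposited table of the authors' own fat comparison was not used.

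Members and lists were chosen with earlier results of these data known. Groups came from titles. Counts were fitted per tissue with edgeR's quasi-likelihood test (glmQLFit, TMM, filterByExpr, Benjamini-Hochberg over all genes tested), and as an interaction over the 12 libraries. Named genes were all members and, from each other list, those passing or else the 3 of smallest p in a tissue. Per-gene p-values measure only the spread between these libraries, and the study gives 3 mice a group for the fat libraries, while whether each liver library is a separate mouse is not given in the sources used here. With 15496019 to 19954971 counts per library, 3 counts are 0.142 to 0.195 TMM-normalised CPM over the libraries, which covers counting error only.

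Deviations of same-numbered null and hHKDC1 OE libraries correlated in liver (r = 0.210, 0.210 and 0.100 over 12247 genes). This was taken as a hint of pairing from the data alone, since no label gives a shared cage or day. The main fits held no pairing, and the replicate number entered as a block only in an alternative. Alternatives were DESeq2, other scaling and filters, limma on log2(FPKM + 1) and log2(FPKM + 0.1), 1 fit of 12 libraries, the replicate block, each library left out, and, chosen after seeing the data, leaving out libraries described as knockouts or rich in B and T cell markers and reading the overlap of groups under other scalings. Scripts were tested on simulated data. edgeR 4.0.16, DESeq2 1.42.0 and limma 3.58.1 ran in R 4.3.3. Promoter sequences are from RefSeq (GRCm38.p6), and Per2 was not matched.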

Additional observations from a re-analysis of the deposited data

How the results depend on the processing

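Clock genes kept their direction and side of the threshold in 136 of 144 alternative values in liver, 155 of 169 in fat, 186 of 197 of the interaction and 122 of 135 between the tissues. Genes called in liver (0) became 94 with DESeq2, 2 with library size alone, 327 with no filter, 3 and 7 with limma on log2(FPKM + 1) and log2(FPKM + 0.1), 76 without the libraries described as knockouts, and 0 to 146 with 1 library left out, while clock genes called became 2 with no filter (Nr1d1 and Dbp) and 0 to 1 with 1 library left out. In fat the genes called (0) became 1446 with DESeq2 (2 clock genes), 803 with no filter, 1 with limma at either pseudocount, 876 in the fit of all 12 libraries (1 clock gene, Per2), 1024 without the libraries described as knockouts, and 0 to 3251 with 1 library left out (0 to 2 clock genes). Without null fat replicate 3 they were 2. For the interaction they became 497 with DESeq2 (1 clock gene), 479 with no filter, 6 with limma on log2(FPKM + 0.1), and 0 to 1211 with 1 library left out (0 to 2 clock genes). The cause was not tested.

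With the replicate number as a block, calls became 17 in liver, 168 in fat, 4 for the interaction and 9938 between the tissues, with 0 clock genes for the vectors and 5 between the tissues, where Nr1d2 passed (-0.44). In fat (r from -0.12 to 0.05) the null and hHKDC1 OE libraries share only a number. Between liver and fat, same-numbered null libraries had r of 0.313, 0.077 and 0.187, and differently numbered ones -0.237 to 0.047. For hHKDC1 OE libraries these were 0.026, 0.104 and 0.085, and -0.230 to 0.184. No label says that such libraries come from the same mouse.

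Some values turned sign. In liver, Tef was -0.017 with limma at either pseudocount and -0.0083 in the fit of 12 libraries, and with a library left out Tef ran from -0.021 to 0.041 and Nr1d2 from -0.010 to 0.39. In fat, Dbp was -0.018 and -0.019 with limma at pseudocounts of 1 and 0.1, -0.37 without the B and T cell rich libraries and -0.19 to 0.21 with a library left out, and Nr1d1 was -0.18 to 0.27. In the interaction, Ciart was 0.21 with limma on log2(FPKM + 1), and with a library left out Ciart ran from -0.79 to 0.78, Per1 from -0.94 to 0.15 and Npas2 from -0.25 to 1.40. Between null fat and null liver, Per2 was 0.046 with upper-quartile scaling and 0.029 with at least 10 counts, and with library size alone Per2 was 0.77, Arntl 0.63, Nr1d2 0.43, Dbp 0.52 and Tef 0.54. With a library left out Arntl ran from -0.50 to 0.25 and Per2 from -0.25 to 0.028. Per1 lost its call in the fit of 12 libraries (adjusted p = 0.197, edgeR). Clock genes called between the tissues numbered 3 to 6. Library size alone moved the median of all genes by 0.15 in fat, where the 7 members that were apart kept their sign but Nr1d2 shrank to -0.20 and Tef to -0.29, and by 0.89 between the tissues. The liver index difference was 1.39 with Nr1d1 against Arntl, and 0.07 to 0.70 with a library left out. The fat one was -0.63 so and -0.61 with Dbp against Npas2, and -1.33 to -0.94.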
